A study of Mus musculus with 40 samples.

Results

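Cd36, Slc27a1, Slc27a2, Slc27a4, Got2, Cav1 and Cav2, genes for the uptake of long-chain fatty acids and for the caveolins, were measured by RNA sequencing in the livers of 40 mice. They were taken by gene symbol, but with earlier results of these data known. The paper had already reported Cd36 and Cav1 as induced when WT mice on the control diet received Pio. They are 7 of the 40239 genes counted and 7 of the 12942 genes abundant enough to be tested. Whether the 7 genes were called more often than other genes cannot be tested with a set chosen in this way. All mice were labelled as C57BL6/J males aged 5 months, either WT or with a liver-specific knockout of PPARγ (KO), made with Cre recombinase under the albumin promoter and loxP sites in Pparg. Both genotypes were split into 4 groups of 5 mice by diet and drug, namely control diet (control), control diet with pioglitazone (Pio), high fat diet (HFD) and high fat diet with pioglitazone (HFD-Pio). Pioglitazone is a thiazolidinedione drug that activates PPARγ, and the design asks how Pio and HFD changed liver RNA and whether the changes differed without hepatocyte PPARγ. Cre under the albumin promoter acts in hepatocytes, so other liver cells keep Pparg, and the WT mice were bought C57BL6/J mice rather than littermates with loxP sites. The genotypes came in a table each, so a difference between the tables and one of genotype cannot be told apart, and no test compared WT with KO mice directly.

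Long-chain fatty acids cross the plasma membrane with the help of several proteins. CD36 is a scavenger receptor that binds fatty acids at the cell surface. The fatty acid transport proteins, encoded by the Slc27a genes, pair uptake with activation of the fatty acid to its coenzyme A ester, and FATP2 (Slc27a2) and FATP5 (Slc27a5) are the main forms of hepatocytes. GOT2 is the mitochondrial aspartate aminotransferase of the malate-aspartate shuttle, and the same protein has been described at the plasma membrane as a fatty acid binding protein. Caveolin-1 and caveolin-2 form hetero-oligomers that coat caveolae, small pits of the plasma membrane rich in cholesterol, which are abundant in adipocytes and endothelial cells and scarce in hepatocytes. PPARγ binds DNA with the retinoid X receptor at a direct repeat of AGGTCA with a base between the repeats, and Cd36 is among its textbook targets.

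Libraries held 15788242 to 49857017 counts in WT mice and 21542958 to 28334251 in KO mice. Levels are given as CPM, the normalised read count per 1000000 counts of a library after TMM scaling, with the SD over n = 5 mice. A gene is called when its adjusted p is at most 0.05 in the quasi-likelihood F test of edgeR, adjusted by the Benjamini-Hochberg method over the 12942 genes, and every adjusted p below comes from this test unless another is named. Mice carry the authors' numbers. The library of KO Pio mouse 13 stood apart, with a Spearman correlation of 0.777 to the median KO library where the next lowest KO mouse had 0.963. Its hepatocyte markers summed to 35141 CPM, the lowest of all mice (76132 to 151386 CPM in WT mice), and its endothelial markers to 833 CPM, the highest. Calls that rest on this library are therefore given with and without it. Among WT mice, control mouse 832 correlated least with the median library (0.944, next 0.960) and held 716 CPM of stellate cell and fibroblast markers against 198 to 239 CPM in the other 4 control mice. Pparg itself had 5.79 to 14.2 CPM in WT mice and 3.01 to 9.90 CPM in KO mice, ranges that overlap. The count of this gene includes exons outside the deleted part, so it does not check the deletion.

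The promoters of Cd36 and Cav1, the members called for Pio in WT mice, are shown first, because the deleted factor is known by its DNA motif. RefSeq gave 10 promoter entries (GRCm38) for the 7 genes, of 250 bases before and 50 after a start site. In each entry the best match to AGGTCANAGGTCA, where N is any base, was sought on both strands and scored over its 12 fixed bases. The 2 entries with 10 of 12 matches belonged to Cd36 and to the second start of Cav1. The 250 bases before these starts are printed 5′ to 3′ on the gene's strand, with the best window in capitals.

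Cd36, chr5:17835897-17836146, minus strand, window 63 to 51 bases before the start and read on the opposite strand: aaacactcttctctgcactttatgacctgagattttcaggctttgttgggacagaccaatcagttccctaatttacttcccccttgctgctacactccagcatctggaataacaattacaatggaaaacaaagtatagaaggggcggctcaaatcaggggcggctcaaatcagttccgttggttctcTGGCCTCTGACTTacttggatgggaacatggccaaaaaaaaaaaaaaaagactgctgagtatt
Cav1, second start, chr6:17307390-17307639, plus strand, window 144 to 132 bases before the start: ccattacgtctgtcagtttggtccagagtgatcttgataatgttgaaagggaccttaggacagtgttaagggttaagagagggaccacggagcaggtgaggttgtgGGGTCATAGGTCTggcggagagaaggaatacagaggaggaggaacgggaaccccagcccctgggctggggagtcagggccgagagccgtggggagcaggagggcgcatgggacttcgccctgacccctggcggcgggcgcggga

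The window of Slc27a2 came next, with 9 of 12 matches, at chr2:126552797-126552809 inside the annotated first exon.

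Slc27a2, plus strand, opposite-strand match: ACGCCTTTGACCT

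The other 7 entries, including the first start of Cav1 and those of Slc27a1, Slc27a4, Got2 and Cav2, had 7 or 8 matches. Of all 32851 promoters in the RefSeq table, 3.86% held a window with at least 10 matches and 24.6% one with at least 9, so windows of this kind are not rare. The plain element AGGTCA, on either strand, was in the entries of Cd36, Slc27a2 and Got2 and in 16.3% of all promoters. A match is a stretch of letters, and no binding was measured here.

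Per kilobase of exon, Slc27a2 was the most abundant of the 7 genes in every group, from 212 CPM per kb in WT control to 394 in WT HFD-Pio mice. Got2 followed with group means of 35.8 to 55.7 CPM per kb, and Slc27a4 lay between 8.58 and 14.6. Cd36 stood near Slc27a4 in 6 groups (8.41 to 11.4 CPM per kb) and reached 39.2 in WT Pio and 38.9 in WT HFD-Pio mice, close to Got2. Slc27a1 had 1.13 to 4.43 CPM per kb, Cav1 0.609 to 1.64 and Cav2 0.242 to 1.24. Of the summed level per kilobase of the 3 transport proteins among the 7 genes, Slc27a2 made up 94.0% in WT control mice and 94.0% to 97.3% over the 8 groups. The caveolins rest on few reads, with 15 to 362 counts per mouse for Cav1 and 5 to 147 for Cav2.

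**Figure D1:**
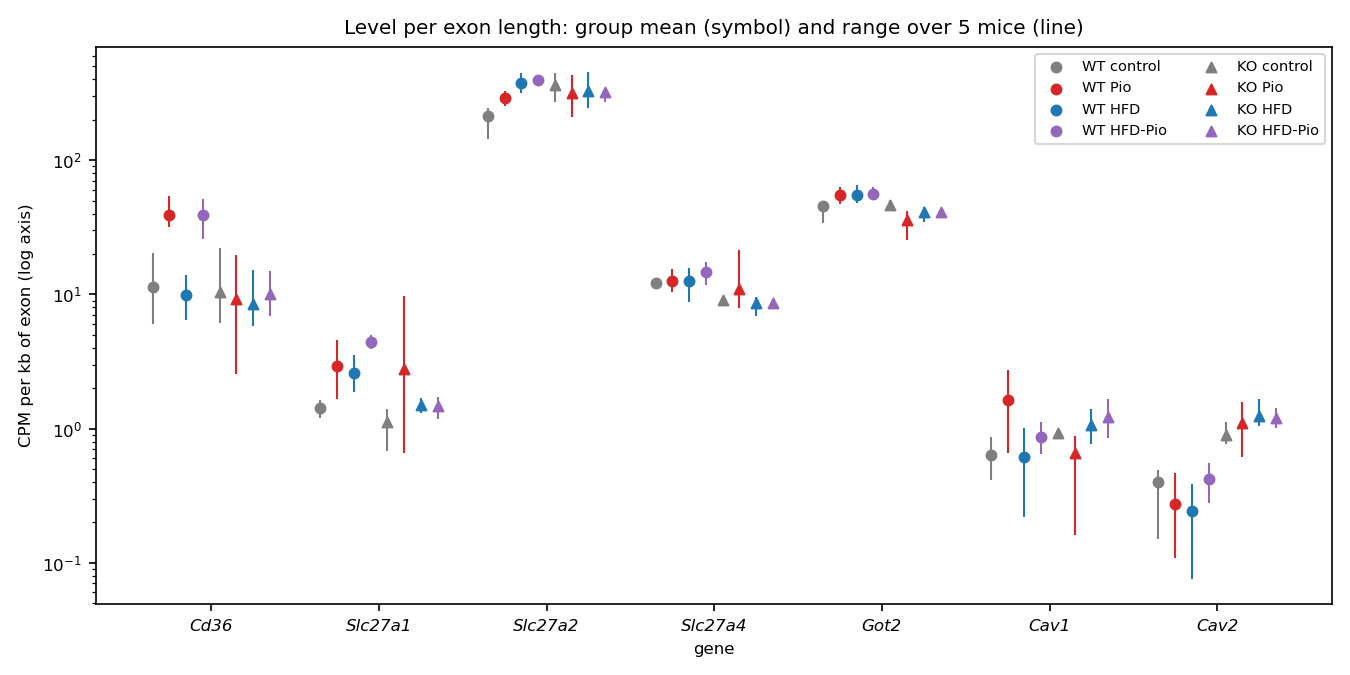
Level per exon length of the 7 genes in the 8 groups, in CPM per kilobase of exon on a log axis, with symbols for group means and lines for the range over 5 mice. Slc27a2 is highest in every group, and Cd36 in the WT Pio and WT HFD-Pio groups (39.2 and 38.9 CPM per kb) stands above its other 6 groups.

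In WT mice on control diet, Pio raised 2 of the 7 genes, Cd36 and Cav1, where 506 of the 12942 tested genes (3.91%) were called in either direction. Shares of all genes are given here and below for scale only, since the 7 genes were chosen with earlier results known. On HFD, Pio raised Cd36 alone of the 7 (1.08% of all genes called). HFD without Pio raised Slc27a2 (1.31% called), and HFD in mice on Pio called 0 of the 7 genes (1.22% called). In the latter, edgeR gave 2 of the 7 an unadjusted p under 0.05, beside 1837 of all 12942 genes. DESeq2 also called 0 of the 7 there (380 of all genes), and limma with sample weights called 4 (2937 of all genes). The median log2 fold changes of the 7 genes in these comparisons were 0.46, 0.50, 0.06 and 0.21, against -0.02, -0.02, 0.0020 and -0.0072 over all tested genes. The plot of Pio and HFD effects shows each gene with its interval.

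Leaving out KO Pio mouse 13, which is in none of these WT groups but shares the estimate of spread, changed the calls in WT mice. Of 12895 genes tested without it, 15.6% were called for Pio on control diet, and 5 of the 7 genes were among them (Cd36, Slc27a1, Slc27a2, Got2 and Cav1). For Pio on HFD the share was 11.6%, with Cd36 and Slc27a1 called. HFD without Pio then called 6.55% of genes with Slc27a1 and Slc27a2 among them, and HFD with Pio called 8.68% with Cav1, which was lower. Calls for the 7 genes were thus more frequent without the mouse, as were calls for all genes. That fit still shared its spread with the other KO mice. Fitting WT mice alone, which also leaves mouse 13 out, called 936, 156, 345 and 203 genes in the same order. The fit without mouse 13 called 2007, 1501, 845 and 1119.

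In KO mice on control diet, Pio called 1 of the 7 genes, Slc27a1, beside 9.01% of all genes, and without mouse 13 it called 0 of 7 beside 0.512%. No gene of the 7 was called for Pio on HFD (0.0155% of all genes), for HFD without Pio (0.185%) or for HFD with Pio (4.96%, and 0.0931% without mouse 13). DESeq2 and limma with sample weights called 0 of 7 in these 3 comparisons too. At an unadjusted p under 0.05, edgeR had 0, 0 and 2 of the 7 genes there, beside 134, 595 and 3106 of all genes. The 2 became 1 without mouse 13, a fit in which the number of all genes at this threshold was not counted. The median log2 fold changes of the 7 genes in the 4 KO comparisons were -0.17, 0.0052, -0.07 and 0.11.

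The Pio effect on control diet was lower in KO than in WT mice for 3 of the 7 genes, Cd36, Cav1 and Got2, in the test of the difference itself (7.87% of all genes called). Without mouse 13 the difference was called for 5 genes, with Slc27a1 and Slc27a2 added (5.78%). On HFD the Pio effects of the 2 genotypes differed in 0 of 7 genes (0.0927%). Only Cd36, 1 of the 7, had an unadjusted p under 0.05, beside 768 of all genes, and 3 of the 7 did without mouse 13. The number of all genes at an unadjusted p under 0.05 was not counted without mouse 13, here or for the differences below. Such counts of the 7 without mouse 13 therefore have no scale. DESeq2 called 0 of the 7 for the difference of Pio effects on HFD (26 of all genes), and limma with sample weights called Cd36 (354 of all genes). The HFD effects differed between genotypes in 0 of 7 genes without Pio (0.0618%) and with Pio (0.0155%). Each had 3 of the 7 at an unadjusted p under 0.05, beside 1220 and 2496 of all genes. Without mouse 13 these were 3 and 1 of the 7. Slc27a2 without Pio and Cav1 with Pio were called by DESeq2 (91 and 108 of all genes) and by limma with sample weights (185 and 975). Without mouse 13, Slc27a2 was also called by edgeR for the HFD difference without Pio (1.05%). The Pio effect did not pass the test of a difference between diets for any of the 7 genes in WT mice (0.0773% of all genes) or KO mice (0%). There 1 and 2 of the 7 had an unadjusted p under 0.05, beside 1564 and 1562 of all genes. Without mouse 13 these were 1 and 0 of the 7. DESeq2 and limma called 0 of 7 genes in both.

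**Figure D2:**
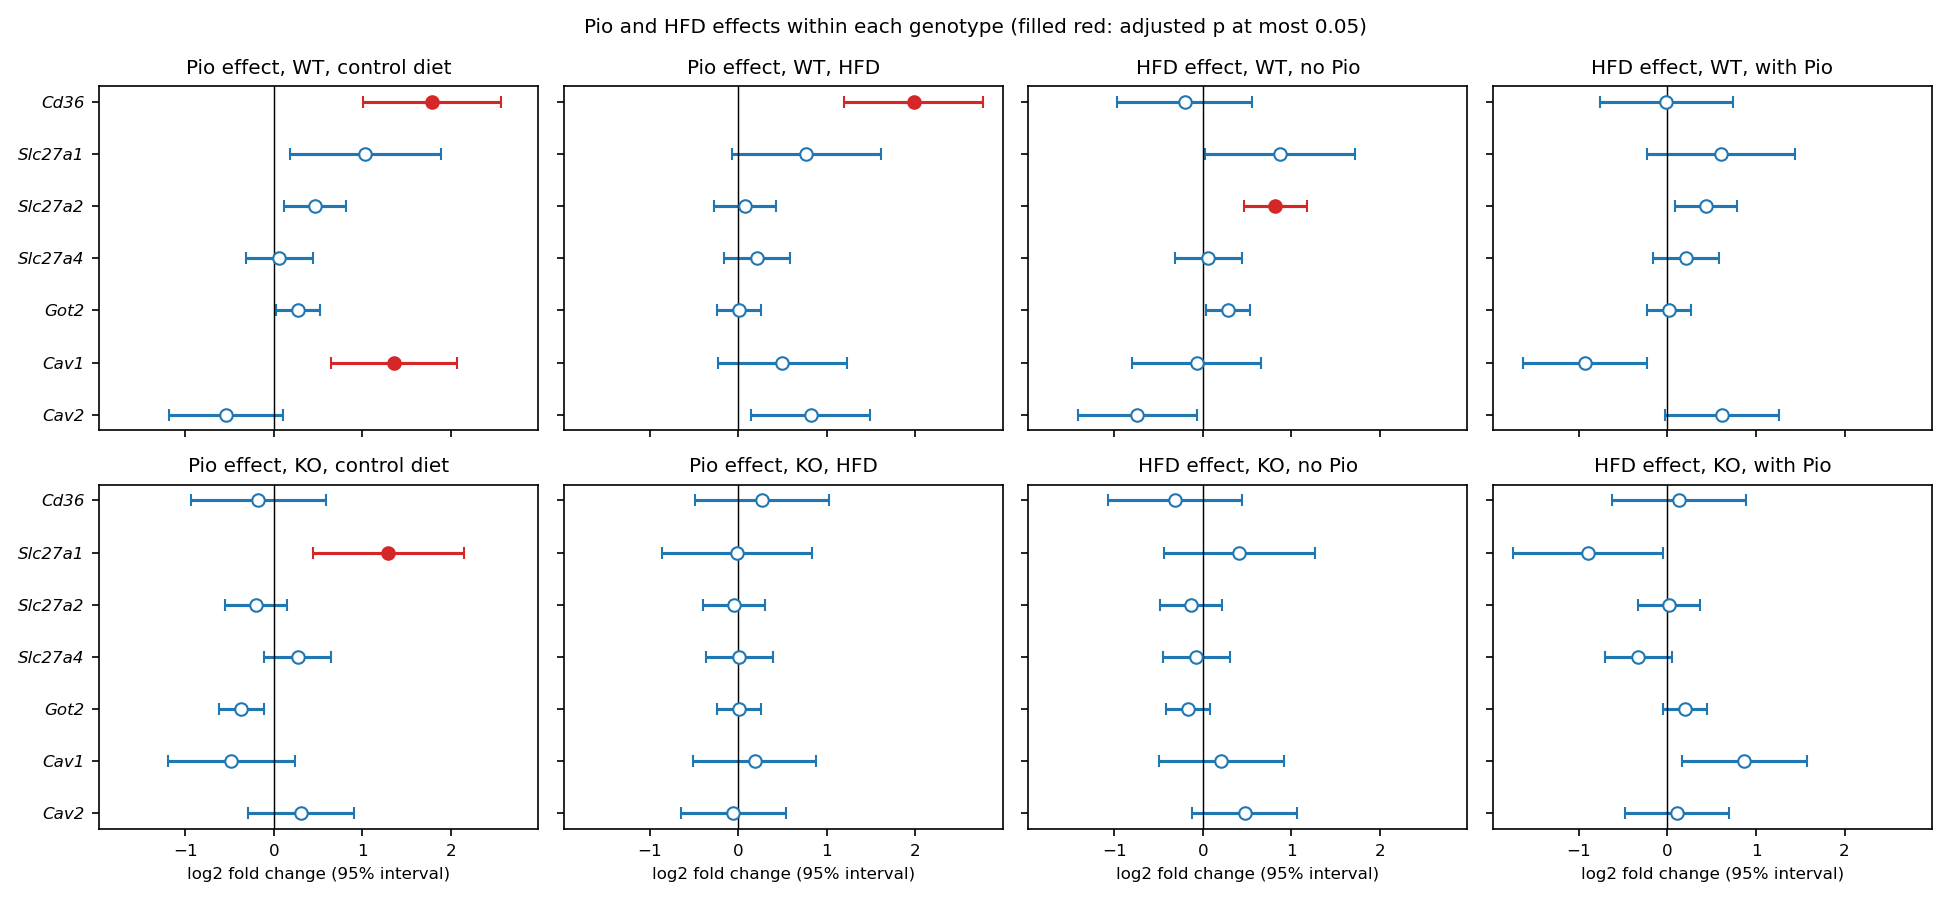
Log2 fold change of each gene for Pio and for HFD within WT mice (top) and KO mice (bottom), with 95% intervals from edgeR's quasi-likelihood fit of all 40 mice and filled red symbols for adjusted p of at most 0.05. Cd36 is filled for Pio in WT mice on both diets, Cav1 for Pio on control diet and Slc27a2 for HFD without Pio in WT mice, and Slc27a1 for Pio in KO mice, a call that was lost without mouse 13.

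Cd36 (ENSMUSG00000002944, chromosome 5, 17781690 to 17888801, minus strand of GRCm38) had 45.1, 73.4, 31.0, 21.7 and 33.2 CPM in the WT control mice. The WT Pio mice had 136, 123, 115, 134 and 196 CPM. Every treated mouse lay above every control mouse, and the mean rose from 40.9 ± 20.0 to 141 ± 31.9 CPM (SD, n = 5), a ratio of 3.44. On HFD the mice without Pio had 23.0, 27.8, 33.2, 50.04 and 43.3 CPM, and those with Pio 158, 186, 93.5, 153 and 108 CPM. Again the groups did not overlap, and the mean rose from 35.5 ± 11.1 to 140 ± 38.0 CPM, a ratio of 3.94. The log2 fold changes were 1.78 (standard error 0.38, adjusted p = 0.00528) on control diet and 1.98 (0.39, adjusted p = 0.00509) on HFD. Both stayed called in each of 11 fits per comparison that left out a mouse, at 1.62 to 2.10 and 1.86 to 2.14. The mice left out were those of the groups compared and KO Pio mouse 13. A change in the number of cells of a type and a change in RNA per cell cannot be told apart in whole liver, for Cd36 as for the genes below.

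No HFD comparison of Cd36 was called in WT mice. The log2 fold change for HFD was -0.21 (95% interval -0.97 to 0.55, adjusted p = 0.879) without Pio and -0.01 (-0.76 to 0.74, adjusted p = 0.994) with Pio. Without control mouse 832, which had the highest Cd36 of its group, the first of these was 0.11. The Pio effect on HFD minus that on control diet was 0.20 (-0.87 to 1.27, adjusted p = 0.931).

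In KO mice, no comparison of Cd36 for Pio or HFD was called. KO control mice had 21.8, 27.4, 31.6, 26.9 and 79.6 CPM, and KO Pio mice 29.4, 70.1, 9.15, 26.4 and 31.3 CPM. Mouse 13 held the lowest of these values, 9.15 CPM. KO HFD mice had 22.4, 20.9, 25.6, 54.1 and 27.9 CPM, and KO HFD-Pio mice 53.6, 44.9, 24.7, 29.4 and 29.4 CPM, so treated and untreated mice overlapped on both diets. The log2 fold change for Pio was -0.17 (-0.93 to 0.59, adjusted p = 0.787) on control diet, 0.09 (adjusted p = 0.982) there without mouse 13, and 0.27 (-0.49 to 1.03, adjusted p = 1.00) on HFD. The KO effect minus the WT effect was -1.96 (standard error 0.53, 95% interval -3.04 to -0.88, adjusted p = 0.0233) on control diet and -1.71 (-2.79 to -0.63, adjusted p = 0.484, unadjusted p = 0.00278) on HFD. Without mouse 13 the difference on control diet was -1.70 (adjusted p = 0.0408). Its call was lost without KO control mouse 5, which held the 79.6 CPM (-1.48, adjusted p = 0.0628), and without WT Pio mouse 845 (-1.80, adjusted p = 0.0531).

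**Figure D3:**
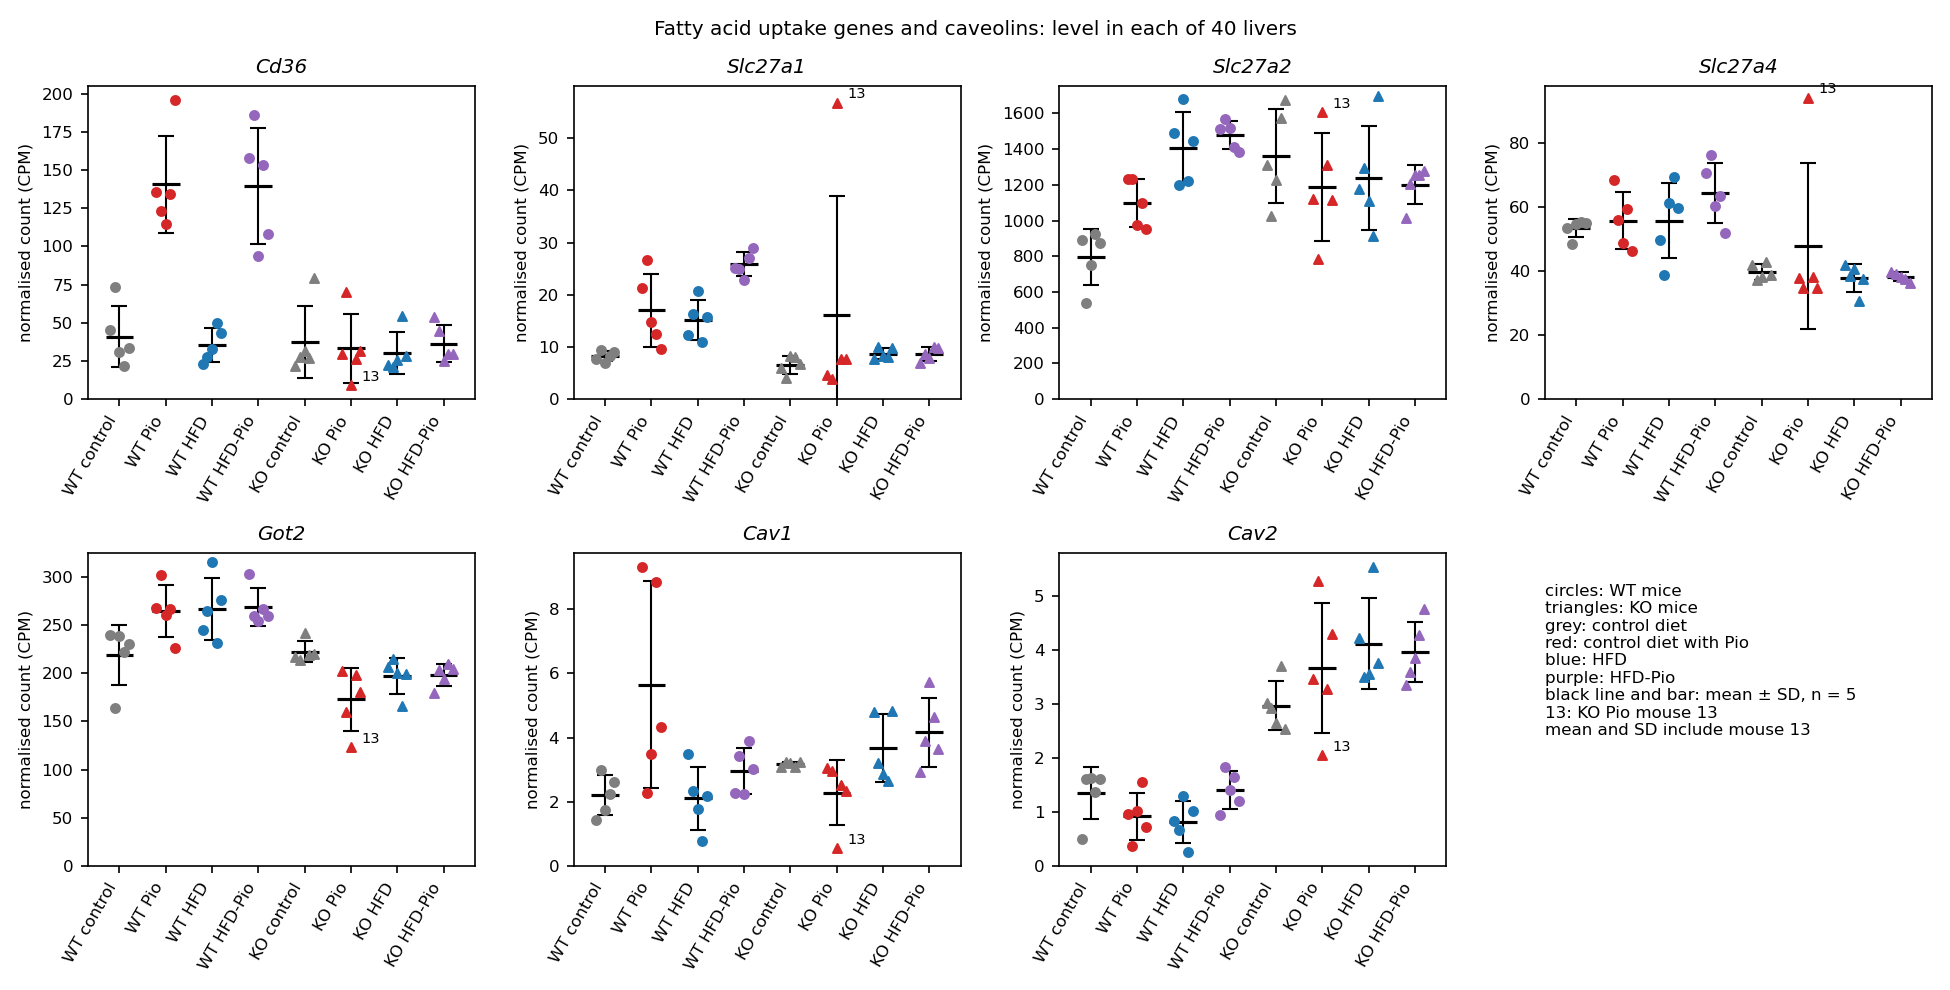
Normalised count (CPM, linear axes from 0) of each of the 7 genes in each of the 40 livers by group, with circles for WT and triangles for KO mice and black lines for the mean ± SD of 5 mice. Cd36 separates the WT groups with Pio (93.5 to 196 CPM) from all other groups (9.15 to 79.6 CPM), Slc27a1 and Slc27a4 have their highest value in KO Pio mouse 13 (56.8 and 94.3 CPM), and the SD bar of Slc27a1 in KO Pio mice runs below the axis.

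Slc27a1 (ENSMUSG00000031808, chromosome 8, 71568882 to 71587302), which encodes FATP1, the form typical of muscle and adipose tissue, was the least abundant of the 3 transport proteins. WT control mice had 7.64, 9.50, 7.01, 8.29 and 9.06 CPM, and WT Pio mice 21.3, 26.7, 14.9, 12.4 and 9.65 CPM. WT HFD mice had 12.3, 16.3, 20.8, 11.0 and 15.7 CPM, and WT HFD-Pio mice 25.2, 25.0, 22.9, 27.0 and 29.0 CPM. The means therefore stood at 8.30 ± 1.01, 17.0 ± 6.94, 15.2 ± 3.84 and 25.8 ± 2.32 CPM. Neither Pio group overlapped its untreated group, and HFD did not overlap control. Even so, no WT comparison passed in edgeR or DESeq2 with all 40 mice, while limma with sample weights called Slc27a1 in all 4. The edgeR fit gave log2 fold changes of 1.03 for Pio on control diet (standard error 0.42, adjusted p = 0.169) and 0.77 on HFD (adjusted p = 0.374). For HFD they were 0.87 without Pio (adjusted p = 0.363) and 0.60 with Pio (adjusted p = 0.546).

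Among KO mice on control diet with Pio, mouse 13 stood apart for Slc27a1. It had 56.8 CPM of Slc27a1, where the other KO Pio mice had 4.58, 3.81, 7.67 and 7.71 CPM. The KO control mice had 5.91, 3.96, 8.18, 8.11 and 6.73 CPM, so the other 4 treated mice overlapped them. With mouse 13, Pio in KO mice on control diet was called higher (1.29, standard error 0.42, adjusted p = 0.0476), and without it the value was -0.13 (adjusted p = 0.950). The call was also lost without any of the 5 KO control mice (adjusted p from 0.0724 to 0.108). Without mouse 13 the standard error of the WT effects fell to 0.21, in a fit that still shared its spread with the other KO mice. In WT mice Slc27a1 then passed for Pio on control diet (1.04, adjusted p = 0.00130) and on HFD (0.78, adjusted p = 0.0160). It was also called for HFD without Pio (0.85, adjusted p = 0.0146). The KO minus WT difference of the Pio effect on control diet turned from 0.26 (-0.93 to 1.45, adjusted p = 0.805) to -1.17 (-1.81 to -0.53, adjusted p = 0.0238). On HFD, where no mouse stood apart, KO mice had 7.68 to 9.93 CPM without and 6.89 to 10.0 CPM with Pio, and the difference from WT was -0.78 (-1.97 to 0.41, adjusted p = 0.911).

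**Figure D4:**
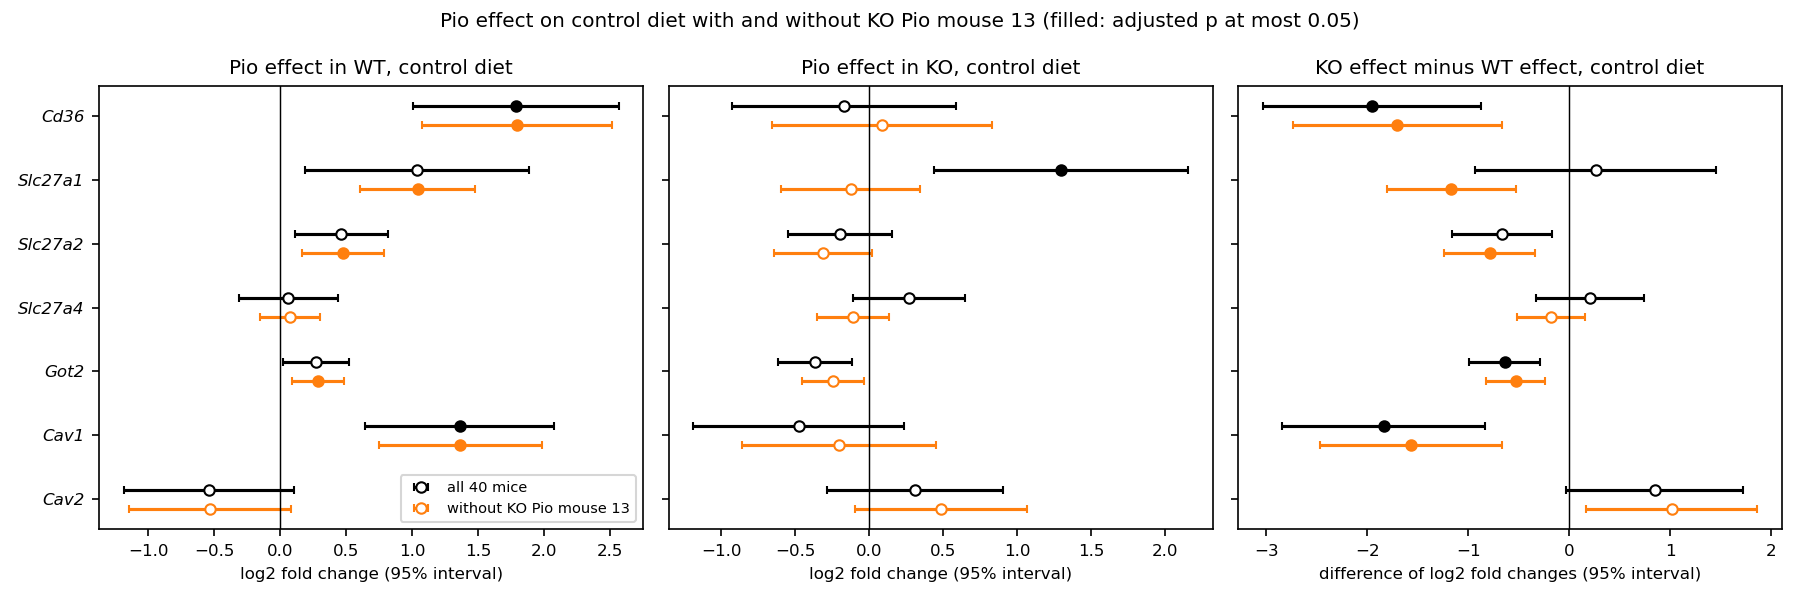
Log2 fold change for Pio on control diet in WT and KO mice and the KO minus WT difference, with 95% intervals, for all 40 mice (black) and without KO Pio mouse 13 (orange), and filled symbols for adjusted p of at most 0.05. Slc27a1 moves from 1.29 to -0.13 in KO mice and from 0.26 to -1.17 in the difference, and its intervals become narrower in WT mice.

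Slc27a2 (ENSMUSG00000027359, chromosome 2, 126552407 to 126588243) encodes FATP2, the abundant hepatocyte form with very long-chain acyl-CoA synthetase activity. It had 893, 540.2, 754, 927 and 873 CPM in WT control mice, and 1489.8, 1199, 1679.7, 1220.5 and 1446 CPM in WT HFD mice. The groups did not overlap. The mean rose from 797 ± 158 to 1407 ± 200.5 CPM, with a log2 fold change of 0.82 (standard error 0.17, 95% interval 0.47 to 1.17, adjusted p = 0.0102). The call was lost, narrowly, without HFD mouse 828 (0.73, adjusted p = 0.0512), and it held without control mouse 832, which had the lowest value (0.70, adjusted p = 0.0415). Pio on control diet gave 1234, 1232, 974, 1098 and 952 CPM, each above every control mouse, with a log2 fold change of 0.46 that did not pass (adjusted p = 0.132) and did without mouse 13 (0.47, adjusted p = 0.0314). WT HFD-Pio mice had 1386 to 1569 CPM, and Pio on HFD gave 0.07 (-0.28 to 0.42, adjusted p = 0.879). Part of the exons of Slc27a2, 419 bases, is shared with the antisense RNA Gm26697, and the strand setting of the counting is not given in the sources used here.

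In KO mice, Slc27a2 was called in no comparison by edgeR, DESeq2 or limma, and 0 had an unadjusted p under 0.05 in edgeR. The group means were 1363 ± 263 CPM in control, 1187 ± 302 in Pio, 1239 ± 290.3 in HFD and 1200.0 ± 109 in HFD-Pio mice, with overlapping ranges throughout. HFD gave a log2 fold change of -0.14 (-0.49 to 0.21) without Pio, and the KO minus WT difference of the HFD effect was -0.96 (-1.45 to -0.46, adjusted p = 0.102). That difference passed in DESeq2, in limma with sample weights and in edgeR without mouse 13 (-0.93, adjusted p = 0.0334). For Pio on control diet the difference was -0.66 (-1.16 to -0.17, adjusted p = 0.0794), and -0.79 (adjusted p = 0.0306) without mouse 13.

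Slc27a4 (ENSMUSG00000059316, chromosome 2, 29802634 to 29817522), which encodes FATP4, a form best known from intestine and skin, had the narrowest range of the 3 transport proteins over the 20 WT mice, 1.96-fold from lowest to highest against 3.11-fold for Slc27a2 and 4.14-fold for Slc27a1. WT group means were 53.5 ± 2.84, 55.8 ± 8.96, 55.8 ± 11.7 and 64.5 ± 9.39 CPM in control, Pio, HFD and HFD-Pio mice. None of its comparisons was called by edgeR or DESeq2, and its log2 values ran from -0.54 to 0.27. The value of -0.54, the KO minus WT difference of the HFD effect with Pio, had an unadjusted p of 0.0471. Without mouse 13 it was -0.14 (unadjusted p = 0.395 in edgeR). The 0.27, for Pio in KO mice on control diet, was -0.11 without that mouse. Limma with sample weights called Slc27a4 for HFD with Pio in WT mice. In KO mice all but 1 of 20 values lay between 30.7 and 42.9 CPM, and mouse 13 had 94.3 CPM. Of the transport proteins outside the 7 genes, Slc27a3 and Slc27a5 were tested and Slc27a6 was below the filter. Slc27a5, the other main hepatocyte form, stood at 691 ± 148 CPM in WT control mice, at 724 ± 183 with Pio and at 813 ± 164 on HFD. Neither Slc27a3 nor Slc27a5 was called in a comparison within WT mice by edgeR, DESeq2 or limma, and 0 had an unadjusted p under 0.05 in edgeR.

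Got2 (ENSMUSG00000031672, chromosome 8, 95864134 to 95888547, minus strand) differed in its Pio response between the genotypes. WT control mice had 239.9, 164, 239, 222 and 230.3 CPM, and WT Pio mice 268, 302, 261, 267 and 226 CPM. KO control mice had 218, 214, 242, 219 and 220.5 CPM, and KO Pio mice 202, 159.5, 123, 199 and 181 CPM. In WT mice, 4 of 5 treated mice lay above all control mice, and in KO mice all 5 treated mice lay below all controls, mouse 13 lowest at 123 CPM. Neither effect passed by itself in edgeR, with log2 fold changes of 0.27 (0.02 to 0.52, adjusted p = 0.225) in WT and -0.36 (-0.61 to -0.11, adjusted p = 0.0541) in KO mice. Without mouse 13 they were 0.29 (adjusted p = 0.0425) and -0.25 (adjusted p = 0.357). With all mice, limma with sample weights called Got2 in both genotypes, and DESeq2 in KO mice. The difference between them was called, at -0.64 (standard error 0.17, -0.99 to -0.29, adjusted p = 0.0236). Without mouse 13 it was -0.53 (adjusted p = 0.0232), and without any filter on low counts -0.62 (adjusted p = 0.0898). Without mouse 832, which had the 164 CPM, it was -0.56 (adjusted p = 0.0426).

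On HFD, no difference of Got2 was called. WT HFD mice had 267 ± 32.5 and WT HFD-Pio mice 269 ± 19.9 CPM, and KO mice 198 ± 18.7 and 198 ± 11.8 CPM. The log2 fold change for Pio was 0.01 in each genotype (intervals -0.24 to 0.26 and -0.24 to 0.25), and their difference was -0.01 (-0.36 to 0.35, adjusted p = 1.00). HFD without Pio gave 0.28 (0.03 to 0.53, adjusted p = 0.289) in WT mice. The annotation places 434 bases of Got2 exons in Gm45760 on the other strand.

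Cav1 (ENSMUSG00000007655, chromosome 6, 17306335 to 17341452), the main structural protein of caveolae, was uneven among the WT Pio mice. These had 9.34, 2.26, 3.50, 8.84 and 4.33 CPM, and WT control mice 1.43, 2.98, 1.75, 2.24 and 2.60 CPM. Mice 841 and 844 were far above the rest, mouse 842 lay within the control range, and the mean rose from 2.20 ± 0.626 to 5.65 ± 3.23 CPM. The log2 fold change was 1.36 (standard error 0.35, 0.65 to 2.07, adjusted p = 0.0221). Its call was lost without WT Pio mouse 841 (1.10, adjusted p = 0.0658) or 844 (1.14, adjusted p = 0.0756), and without control mouse 831 (1.23, adjusted p = 0.0647) or 833 (1.29, adjusted p = 0.0528). On HFD the mice without Pio had 3.48, 2.31, 1.77, 0.760 and 2.16 CPM and those with Pio 2.28, 3.43, 2.22, 3.88 and 3.01 CPM. These overlapped (log2 fold change 0.50, -0.23 to 1.22, adjusted p = 0.533), and the difference of the Pio effect between the diets was -0.86 (-1.87 to 0.15, adjusted p = 0.500).

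Cav1 was not called for Pio in KO mice, although the groups did not overlap on control diet. KO control mice had 3.09, 3.24, 3.20, 3.08 and 3.24 CPM and KO Pio mice 3.05, 2.95, 0.558, 2.52 and 2.32 CPM, with every treated mouse below every control mouse. The log2 fold change was -0.48 (-1.19 to 0.23, adjusted p = 0.379), and -0.21 (adjusted p = 0.932) without mouse 13, which held the 0.558 CPM. The KO minus WT difference was called at -1.84 (standard error 0.50, -2.84 to -0.83, adjusted p = 0.0224), and at -1.57 (adjusted p = 0.0302) without mouse 13. KO HFD-Pio mice had 2.91, 3.88, 5.75, 4.65 and 3.65 CPM. For HFD in mice on Pio, the log2 fold change was 0.87 in KO (0.16 to 1.58, adjusted p = 0.115) and -0.93 in WT mice (-1.63 to -0.23, adjusted p = 0.183), and their difference was 1.80 (0.80 to 2.80, adjusted p = 0.122). Without mouse 13 the KO value was 0.61 (-0.04 to 1.26, adjusted p = 0.991) and the difference 1.55 (adjusted p = 0.175).

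Cav2 (ENSMUSG00000000058, chromosome 6, 17281185 to 17289115), the neighbour of Cav1 and the partner of its product, was called in no comparison by edgeR, DESeq2 or limma, and 4 comparisons had an unadjusted p under 0.05 in edgeR. WT control mice had 0.502, 1.60, 1.63, 1.36 and 1.61 CPM and WT Pio mice 0.954, 0.364, 1.01, 1.55 and 0.721 CPM. WT HFD mice had 0.825, 0.653, 1.29, 0.253 and 1.02 CPM and WT HFD-Pio mice 0.936, 1.84, 1.4, 1.64 and 1.20 CPM. The groups overlapped, with log2 fold changes for Pio of -0.54 (-1.18 to 0.11, adjusted p = 0.392) on control diet and 0.82 (0.14 to 1.49, adjusted p = 0.217) on HFD. The difference between the diets was 1.35 (0.42 to 2.29, adjusted p = 0.193). KO group means were 2.97 ± 0.458, 3.67 ± 1.20, 4.12 ± 0.848 and 3.97 ± 0.562 CPM in control, Pio, HFD and HFD-Pio mice. All 20 KO mice (2.05 to 5.55 CPM) lay above all 20 WT mice (0.253 to 1.84 CPM), which was not tested, since the genotypes have separate tables. The annotated antisense gene Gm15581 spans both caveolins and shares 0 bases of their exons.

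Partners of these genes were described by lists. Counts over all 12942 genes in WT mice follow, for Pio on control diet and on HFD, then HFD without and with Pio. In edgeR 2314, 2020, 1710 and 1837 genes had an unadjusted p under 0.05. DESeq2 called 813, 360, 376 and 380 genes, and limma 3095, 1087, 327 and 2937. Of the 8 caveolar coat and adaptor genes, 6 were tested, and Pio on control diet raised Cavin2 (Sdpr in the files), a coat protein of caveolae, in WT mice, from 5.81 ± 1.58 to 11.1 ± 2.88 CPM (log2 fold change 0.93, standard error 0.23, adjusted p = 0.0164). The other 5 tested genes, among them Cavin1 with 12.5 ± 7.12 and 13.3 ± 1.64 CPM, were not called by edgeR or DESeq2, limma also called Ehd2 (0.13 in edgeR), and the median of the list was 0.11. In the other 3 WT comparisons 0 genes of this list were called by edgeR or DESeq2, with 1 gene each at an unadjusted p under 0.05, and limma called 1 for HFD with Pio. Of the 5 fatty acid binding proteins, which carry fatty acids inside the cell, Pio on control diet raised Fabp4, the adipocyte form, from 8.87 ± 2.15 to 85.8 ± 64.7 CPM (3.27, adjusted p = 0.00121). HFD lowered Fabp5 both without Pio (-3.20, adjusted p = 0.0147) and with Pio (-3.82, adjusted p = 0.00310), from 53.7 ± 48.2 to 5.86 ± 2.95 CPM and from 97.5 ± 41.6 to 6.88 ± 2.32 CPM. Fabp1, the liver form, was not called in WT mice.

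The 6 lipoprotein and scavenger receptors included Vldlr, which binds triglyceride-rich lipoproteins and was raised by Pio on control diet from 5.07 ± 2.03 to 17.1 ± 5.17 CPM (1.75, adjusted p = 0.0153). On HFD it stood at 5.94 ± 2.38 and 17.5 ± 5.24 CPM (1.57, adjusted p = 0.0622), a difference called by DESeq2 and limma. The other 5 were not called by edgeR in WT mice, while for Pio on control diet DESeq2 and limma called Scarb1 (-0.55, adjusted p = 0.0648 in edgeR). Of 5 long-chain acyl-CoA synthetases 4 were tested, and HFD without Pio raised Acsl1, the main form of liver and fat, from 690.4 ± 201 to 1464 ± 189.5 CPM (1.08, adjusted p = 0.0134). The other 3 had negative values in that comparison, -0.76 for Acsl3, -1.09 for Acsl4 and -0.75 for Acsl5 (adjusted p = 0.162, 0.09996 and 0.110), with an unadjusted p under 0.05 for all 4 and a list median of -0.76. Beside Acsl1, DESeq2 called Acsl4 there and limma Acsl5. In the malate-aspartate shuttle, where Got2 works beside 6 listed partners, HFD without Pio lowered Got1, its cytosolic counterpart, from 393 ± 128 to 137 ± 38.8 CPM (-1.53, adjusted p = 0.00508). The other 5 partners were not called by edgeR or DESeq2 in WT mice, and limma called Mdh1 for Pio on HFD and Slc25a13 for HFD with Pio. Of the 6 PPAR and RXR receptor genes, edgeR called 0 in the 4 comparisons within WT mice, with 1 or 2 at an unadjusted p under 0.05. DESeq2 called 1 for Pio on control diet, and limma called 2 for Pio on control diet and 4 for HFD with Pio. Medians of these lists for Pio on control diet lay between -0.12, for the 2 transport proteins outside the 7 genes, and 0.82, for the fatty acid binding proteins.

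Markers of other cells were set beside these results, and the counts over all genes given above for each tool apply here too. Endothelial cells are rich in caveolae, and 0 of 12 endothelial markers were called by edgeR or DESeq2 for Pio or HFD in WT mice. On control diet, 1 of them had an unadjusted p under 0.05 for Pio, and limma called 2. They summed to 299 to 467 CPM in WT control and 273 to 515.5 CPM in WT Pio mice. Mouse 841, with the highest Cav1, had the lowest endothelial sum of its group (273 CPM) and the highest sums of mesothelial (21.1 CPM, others 5.83 to 8.84) and adipocyte markers (452 CPM). Mouse 844, with nearly as much Cav1, had 435, 5.83 and 279 CPM in the same order. Of 8 adipocyte markers 5 were tested, and Pio raised Cfd and Retn in WT mice on both diets, by 6.88 (adjusted p = 2.43e-06) and 5.98 (adjusted p = 1.91e-06) on the log2 scale on control diet. The sum of the list went from 22.2 to 40.1 CPM in WT control to 84.2 to 452 CPM in WT Pio mice and from 36.7 to 76.6 to 123 to 509 CPM on HFD, beside the rise of Cd36. Most of it was Cfd (1.73 ± 1.27 and 208 ± 145 CPM in the control diet groups), while group means in WT mice were 0.0285 to 0.0726 CPM for Adipoq, 0 to 0.0304 for Lep and 0.00624 to 0.0273 for Plin1, defining markers at or near 0. HFD lowered Slc2a4, another of the list. The part of these markers in the rise of Cd36 and Cav1 was not tested. For Pio on control diet in WT mice, edgeR and DESeq2 called 0 markers of macrophages, stellate cells and fibroblasts, mesothelium and hepatocytes. In edgeR, 1 marker of each of these 4 lists had an unadjusted p under 0.05, and limma called 2 of hepatocytes and 2 of stellate cells and fibroblasts. For HFD without Pio, where Slc27a2 rose, the 8 hepatocyte markers summed to 76132 to 127647 CPM in WT control and 103892 to 151386 CPM in WT HFD mice. Of these, edgeR called 0 with 4 at an unadjusted p under 0.05, namely Apoa1 (log2 fold change 0.78), Cyp2e1 (1.13), Cps1 (-0.71) and Tat (-1.04). DESeq2 called Apoa1, Cyp2e1 and Tat, and limma Cps1 and Tat, and their part in the rise of Slc27a2 was not tested. Of 5 blood markers, Pio lowered Alas2 on control diet (-0.87, adjusted p = 0.0478).

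Over the 20 WT mice, the genes most like each member in log2 CPM were picked from the 9281 genes whose mean reached 5 CPM, the member itself left out. These correlations describe shared group differences and shared libraries. Cd36 went most closely with Gprc5b (Pearson r = 0.967, Spearman rho = 0.929), Cidec, a lipid droplet protein (0.957, 0.940), and Osbpl3 (0.936, 0.890). Slc27a1 went with Enpp2 (0.905, 0.908), Eci1, an enzyme of fatty acid oxidation (0.889, 0.883), and Pex19, a peroxisome biogenesis factor (0.863, 0.844). Slc27a2 went with Acat1, a mitochondrial thiolase (0.959, 0.898), Car3 (0.947, 0.907) and Slc12a7 (0.943, 0.883). For Slc27a4 they were Aco1 (0.915, 0.904), Pcsk6 (0.871, 0.827) and Fbxw8 (0.834, 0.853). For Got2 they were Gstt1 (0.934, 0.798), Cox7b, a subunit of cytochrome c oxidase (0.908, 0.809), and Dnajc19 (0.906, 0.758). Cav1 (Rbbp7, 0.851 and 0.815, Ipo7, 0.845 and 0.905, Vps13a, 0.842 and 0.788) and Cav2 (Rab33b, 0.858 and 0.696, Myo7a, 0.850 and 0.829, Nae1, 0.842 and 0.689) shared no gene among their nearest 3. Among the 7 genes themselves, Slc27a2 and Got2 were the most alike pair by Pearson r (0.794, rho 0.662), and Slc27a1 and Slc27a2 by Spearman rho (0.753, r 0.760). Cd36 with Slc27a1 had 0.548 and 0.523, Cd36 with Cav1 0.503 and 0.547, and the caveolins with each other 0.436 and 0.214.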

How the data were processed

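Poly-A RNA of 40 livers had been sequenced. The authors aligned the reads with STAR 2.0.4b to GRCm38 (Ensembl 76) and Subread featureCounts 1.4.5 counted the reads of each gene that aligned uniquely and without ambiguity. The deposited values are raw counts, with WT and KO mice apart, and all 40 columns matched a labelled mouse. Repeated lines (598 and 574) never differed and were dropped. The tables share 40594 genes, of which 355 rRNA genes were removed. Genes reaching 1 CPM in 5 or more mice (12942) were fitted in 1 model of 8 groups (edgeR 4.0.16, TMM, robust quasi-likelihood F test, Benjamini-Hochberg adjustment, R 4.3.3), with a common dispersion of 0.085. The counts limit precision most for the caveolins. P values set a difference against the spread between mice, which was estimated in the model of all 8 groups. No replicate pair agreed within counting noise. The alternatives were DESeq2 1.42.0, limma 3.58.1 with sample weights (the study's test), RLE scaling, no filter, each genotype alone and leaving out a mouse. For each comparison, the mice left out in turn were those of the groups compared and KO Pio mouse 13. Scripts were tested on simulated data. Exons came from GENCODE. Further tools were matplotlib 3.10.9, scipy 1.17.1, numpy 2.4.6, pandas 2.3.3, Python 3.11.15 and, in R, data.table (1.17.8).

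The 7 genes and the lists were chosen with earlier results of these data known. Named were the 7 genes, Pparg, members of the lists called in WT mice, and the 3 genes with the highest Pearson correlation to each of the 7 in WT mice. Other genes in the text were named after their values were seen. Binding data of the study were not analysed here, and some results are not reported here.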

Additional observations from a re-analysis of the deposited data

Results flagged for a closer look

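Of 56 sets of 5 mice (7 genes in 8 groups), 11 held a mouse far from the other 4 by Dixon's criterion. Chance gives this in about 1 in 20 sets when sets are independent and values normally distributed. The 7 genes were measured in the same livers and CPM were not transformed, so that rate need not hold here. The rate over all genes was not computed, so whether 11 of 56 is unusual cannot be told. Cd36 was high in WT Pio mouse 845 (195.7 CPM, others 115 to 136), in KO control mouse 5 (79.6 CPM, others 21.8 to 31.6) and in KO HFD mouse 9 (54.1 CPM, others 20.9 to 27.9). KO Pio mouse 13 was high in Slc27a1 (56.8 CPM, others 3.81 to 7.71) and Slc27a4 (94.3 CPM, others 34.8 to 38.1). WT control mouse 832 was low in Slc27a4 (48.5 CPM, others 53.6 to 55.5) and Got2 (164 CPM, others 222 to 239.9). Got2 was high in WT HFD-Pio mouse 836 (303 CPM, others 254 to 267) and in KO control mouse 3 (242 CPM, others 214 to 220.5). Slc27a2 was low in KO HFD-Pio mouse 16 (1012 CPM, others 1202 to 1277), and Cav2 in WT control mouse 831 (0.502 CPM, others 1.36 to 1.63).

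In 3 genes the Pio effect on control diet differed between KO and WT mice by the test of the difference in edgeR. The KO minus WT differences were -1.96 for Cd36, -1.84 for Cav1 and -0.64 for Got2 on the log2 scale, with adjusted p of 0.0233, 0.0224 and 0.0236. In single mice, 5 of 5 WT Pio mice were above all WT controls for Cd36 (4 of 5 for Cav1 and Got2), and 5 of 5 KO Pio mice were below all KO controls for Got2 and Cav1 (1 of 5 for Cd36).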

How the results depend on the processing

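No paired analysis was possible because each mouse has a number of its own and groups share none. Of 1925 values of the 7 genes under alternatives, 1785 kept direction and side of the threshold, 16 lost and 31 gained a call, and 93 changed sign. Except where shown, the cause was not tested. Members called moved with limma with sample weights to 4 (Pio, WT, control diet), 2 (Pio, WT, HFD), 2 and 4 (HFD in WT without and with Pio), 1 (Pio by genotype, HFD), and 1 and 1 (HFD by genotype without and with Pio). With DESeq2 they were 2 for Pio in KO on control diet and 1 and 1 for HFD by genotype. With a genotype fitted alone they were 2 for HFD in WT without Pio and 0 for Pio in KO on control diet, also 0 without the filter on low counts. Leaving out a mouse gave 1 to 5 and 1 to 2 for Pio in WT on control diet and HFD, 0 to 2 and 0 to 1 for HFD in WT without and with Pio, 0 to 2 for Pio in KO on control diet, 0 to 1 for HFD in KO with Pio, 2 to 5 for Pio by genotype on control diet, and 0 to 1 for each HFD by genotype. Both counts of 5 came from leaving out KO Pio mouse 13. Over the same fits, counts of all genes called ran from 203 to 2007 for Pio in WT on control diet. On HFD they ran from 39 to 1501. For HFD in WT they ran from 58 to 845 without and 47 to 1119 with Pio. In KO they ran from 66 to 2318 for Pio on control diet and 2 to 2024 for HFD with Pio. For Pio by genotype on control diet they ran from 537 to 1976. For HFD by genotype they ran from 1 to 136 without and 1 to 391 with Pio.

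Counts of all genes called also moved in most settings, many of them by more than 1.5 times. In WT they were 506 for Pio on control diet (813 with DESeq2, 3095 with limma, 315 without the filter, 936 with the genotype alone), 140 for Pio on HFD (360, 1087, 70 and 156), 170 for HFD without Pio (376, 327, 101 and 345) and 158 for HFD with Pio (380, 2937, 86 and 203). In KO they were 1166 for Pio on control diet (1427, 1216, 818 and 0), 2 for Pio on HFD (8, 0, 0 and 0), 24 for HFD without Pio (53, 542, 15 and 0) and 642 for HFD with Pio (1012, 309, 81 and 0). For Pio by diet they were 10 in WT (135, 1378, 0 and 1) and 0 in KO (52 with limma). For Pio by genotype they were 1018 on control diet (1392, 1998 and 565 with DESeq2, limma and no filter) and 12 on HFD (26, 354 and 12), and for HFD by genotype 8 without Pio (91, 185 and 4) and 2 with Pio (108, 975 and 1). Depth limits the caveolins most, with as few as 15 counts for Cav1 and 5 for Cav2 in a mouse.

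Log2 values that changed sign with limma were, for Pio in WT, Slc27a4 -0.011 (control diet) and Got2 -0.023 (HFD). For HFD in WT they were Cd36 0.28, Cav1 0.052 and Slc27a4 -0.030 without Pio and Cd36 0.11 with Pio. For Pio in KO they were Cd36 0.13 and Slc27a4 -0.13 on control diet, and Cav2 0.042, Got2 -0.044 and Slc27a4 -0.047 on HFD. For HFD with Pio in KO they were Slc27a1 0.42 and Slc27a4 0.069. For differences they were Cd36 -0.17 and Slc27a4 0.085 (Pio by diet in WT and KO), Slc27a1 -0.79 and Slc27a4 -0.12 (Pio by genotype, control diet), Slc27a4 0.014 and Cd36 -0.0056 (HFD by genotype without and with Pio). With a genotype alone, Cd36 for HFD with Pio in WT was 0.0049, Got2 for Pio on HFD in KO -0.0043 and Slc27a2 for HFD with Pio in KO -0.0054. The latter 2 were -0.0019 and -0.0032 with DESeq2 and with RLE factors, and Slc27a2 was -0.011 without the filter.

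Leaving out a mouse changed signs within these ranges. For Pio in WT, Slc27a4 ran from -0.024 to 0.12 (control diet) and Got2 from -0.036 to 0.092 (HFD). For HFD in WT without Pio, Cd36 ran from -0.39 to 0.11, Cav1 from -0.34 to 0.15 and Slc27a4 from -0.030 to 0.15. With Pio, Cd36 ran from -0.14 to 0.13 and Got2 from -0.036 to 0.069. For Pio in KO on control diet, Cd36 ran from -0.63 to 0.30, Slc27a1 from -0.13 to 1.59 and Slc27a4 from -0.11 to 0.40. On HFD, Cav2 ran from -0.13 to 0.078, Slc27a2 from -0.14 to 0.091, Got2 from -0.049 to 0.034, Slc27a1 from -0.075 to 0.051 and Slc27a4 from -0.053 to 0.050. For HFD in KO, Cd36 ran from -0.64 to 0.16 without Pio. With Pio, Cav2 ran from -0.052 to 0.27, Cd36 from -0.12 to 0.59, Slc27a2 from -0.11 to 0.14, Slc27a1 from -1.18 to 0.53 and Slc27a4 from -0.44 to 0.063. For Pio by diet, Cd36 ran from -0.12 to 0.38 in WT and from -0.035 to 0.88 in KO, where Slc27a1 ran from -1.61 to 0.10 and Slc27a4 from -0.39 to 0.12. For Pio by genotype, Slc27a1 ran from -1.17 to 0.55 and Slc27a4 from -0.18 to 0.33 on control diet, and Slc27a2 from -0.22 to 0.0044 and Got2 from -0.089 to 0.041 on HFD. For HFD by genotype, Cd36 ran from -0.42 to 0.37 without and from -0.10 to 0.61 with Pio.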
